A study of Mus musculus with 2 samples.

Results

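The microRNAs miR-23, miR-27 and their cluster partner miR-24 are made from a pair of related gene clusters, and 10 of the 1900 miRNA probes on the arrays carry the names of their mature forms. The members were chosen by probe name alone: the guide arms mmu-miR-23a-3p, mmu-miR-23b-3p, mmu-miR-27a-3p, mmu-miR-27b-3p and mmu-miR-24-3p, and the passenger arms mmu-miR-23a-5p, mmu-miR-23b-5p, mmu-miR-27a-5p, mmu-miR-27b-5p and mmu-miR-24-2-5p. The prefix mmu, for mouse, is left out below. They were measured in epididymal adipose tissue, the fat pad beside the epididymis, from male C57BL/6J mice that entered the experiment at 8 weeks of age and were then fed for 8 weeks. The normal-diet array held RNA of mice whose food contained 5% fat, and the high-fat array RNA of mice that took 60% of their calories from fat. The sources used here do not give the number of animals behind an array. With 1 array per diet there is no replicate check, no difference has a test, and diet cannot be told apart from the array position (1 or 2) that the file headers record.

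A miRNA is cut from a hairpin precursor whose arms give a guide strand, which is loaded into the silencing complex, and a passenger strand, which is mostly degraded. The guide pairs with messenger RNAs through its seed, bases 2 to 8 from the 5′ end. In these clusters the 3p arms are the usual guides. miR-27a and miR-27b are known to restrain fat cell differentiation and to target Pparg, the master transcription factor of adipocytes. miR-23 and miR-24 come from the same primary transcripts, and the clusters are also well known in vascular endothelium.

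The a cluster lies on mouse chromosome 8, with Mir23a at chr8:84208518-84208592, Mir27a at chr8:84208672-84208758 and Mir24-2 at chr8:84208815-84208921 on the plus strand (GRCm38.p6), a span of 404 bases. The b cluster lies on chromosome 13, with Mir23b at chr13:63300484-63300557, Mir27b at chr13:63300712-63300784 and Mir24-1 at chr13:63301208-63301275, a span of 792 bases within the annotated bounds of the protein-coding gene Aopep. No gene of the RefSeq table spans Mir23a or Mir27a. The miR-24-3p sequence arises from both clusters, so its single probe reads their sum. The sequence of miR-23b-3p was not matched by name and is not shown. The guide sequences of miR-23a, miR-27a, miR-27b and miR-24 are shown because they bear on which copies a probe can tell apart, with the seed in capitals (RefSeq, GRCm38.p6):
miR-23a-3p: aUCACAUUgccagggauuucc
miR-27a-3p: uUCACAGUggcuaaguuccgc
miR-27b-3p: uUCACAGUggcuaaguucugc
miR-24-3p: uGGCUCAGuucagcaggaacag

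The miR-27 copies share their seed and differ by 1 base, C19U, counted from the 5′ end of miR-27a-3p. The seeds of miR-23a-3p and miR-27a-3p also differ by 1 base, U7G, while that of miR-24-3p is unrelated. The passenger arms diverge more between the copies, as their sequences show, again with bases 2 to 8 in capitals:
miR-23a-5p: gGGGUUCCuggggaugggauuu
miR-23b-5p: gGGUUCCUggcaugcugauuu
miR-27a-5p: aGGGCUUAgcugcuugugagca
miR-27b-5p: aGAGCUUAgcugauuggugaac
miR-24-2-5p: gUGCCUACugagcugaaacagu
miR-24-1-5p: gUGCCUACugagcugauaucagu

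miR-27a-5p and miR-27b-5p differ at 8 of 22 positions. The passenger arms of miR-24-2 and miR-24-1 are identical over their first 16 bases and part only toward the 3′ end. The miR-24 hairpins, with both mature arms in capitals, show how different precursors yield the same guide:
Mir24-2: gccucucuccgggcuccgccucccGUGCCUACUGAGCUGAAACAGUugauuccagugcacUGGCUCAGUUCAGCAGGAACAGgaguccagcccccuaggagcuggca
Mir24-1: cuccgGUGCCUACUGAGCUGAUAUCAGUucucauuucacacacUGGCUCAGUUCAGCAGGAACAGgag

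On the whole arrays, 1370 miRNAs were detected on normal diet and 1510 on the high-fat diet, and 1339 on both. A probe counted as detected when its spot median exceeded the blank spots' mean by over 2 of their SD. Among markers of the tissue, all 9 adipocyte miRNAs were detected on both arrays. The arrays also differed in markers of other cells, given here as measured on the same RNA. The 14 epididymis and testis miRNAs summed to a net signal of 13 on normal diet, where 9 of them were not detected, and to 3214 on the high-fat diet. The 7 miRNAs of the epithelial list, the miR-200 family with miR-203-3p and miR-205-5p, summed to 129 and 484. Of its 6 miRNAs detected on both arrays, only miR-203-3p was lower after the quantile scaling described below (log2 difference -0.20). The 3 erythrocyte miRNAs summed to 5534 and 1050. Net signal here is the spot median minus the mean of the blank spots. Their part in the differences below was not tested, and in whole tissue fewer cells of a type and less RNA per cell cannot be told apart.

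All 5 guide arms were detected on both arrays, and all 5 had a lower net signal on the high-fat array. The net signal of miR-23a-3p was 1848 on normal diet and 1071 on the high-fat diet. miR-23b-3p stood at 1729 and 984. The a and b copies of miR-23 thus differed by nearly the same factor, 1.72-fold and 1.76-fold lower. miR-27a-3p had 1357 on normal diet and 849 on the high-fat diet, 1.60-fold lower. miR-27b-3p had 743 and 494, 1.5-fold lower. miR-24-3p had 1294 and 1048, the smallest difference of the guide arms at 1.23-fold lower. These net signals are not scaled between the arrays: among the 203 miRNAs with a net signal above 100 on both arrays, 46.8% were lower on the same measure. The 5 bright control probes, with 8 spots each, were lower too: the median net signal of the spike controls went from 6805 to 5566 and from 7541 to 5898, and that of S-Probe28 from 2182 to 1584. Their mean log2 differences before scaling lay between -0.46 and -0.18, so the difference of miR-24-3p (-0.29 on that measure) was within the range of the controls. Those of miR-27b-3p (-0.54), miR-27a-3p (-0.65), miR-23a-3p (-0.76) and miR-23b-3p (-0.78) lay below it. That range is of means over 8 spots, whereas each guide arm had a single spot. Single spots of S-Probe28, whose mean was -0.46, varied with an SD of 0.185. miR-27b-3p thus lay within an SD of that mean, and miR-27a-3p about an SD below it.

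**Figure D1:**
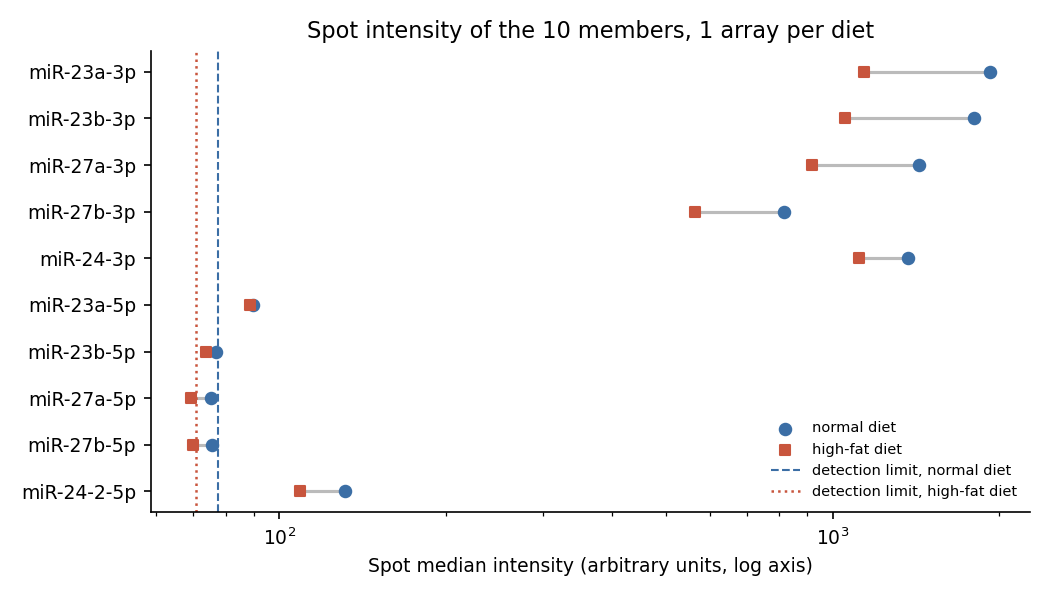
Spot median intensity (log axis) of each member on the normal-diet array (circles) and the high-fat array (squares), with each array's detection limit as a vertical line. The 5 guide arms (top) lie far above both limits and are lower on the high-fat array, whereas the passenger arms lie at or near the limits, with miR-24-2-5p the furthest above them.

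After background correction, quantile scaling and a log2 transform, 4 of the 5 guide arms remained lower on the high-fat array. miR-27b-3p had a normalised intensity of 812 on normal diet and 550 on the high-fat diet (log2 difference, high-fat minus normal, -0.56). miR-23b-3p went from 1569 to 1088 (-0.53), and miR-27a-3p from 1311 to 920 (-0.51). miR-23a-3p went from 1705 to 1248 (-0.45). Both copies of both families therefore lay below their normal-diet value by between 0.45 and 0.56 on this scale. miR-24-3p did not: it stood at 1215 and 1232 (0.02). The median over the guide arms was -0.51, against -0.04 over all 1339 miRNAs detected on both arrays.

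Size was read by 2 rules, a log2 difference of 0.32 or more, and 2-fold. Of the 7 members detected on both arrays, 6 were below 0, where 64.4% of all detected miRNAs were. Lower by at least 0.32 were 5 of the 7 (miR-23a-3p, miR-23b-3p, miR-27a-3p, miR-27b-3p and miR-24-2-5p), a size that 7.62% of all detected miRNAs reached. Dim probes rarely reach it, because the offset of 50 added before the logarithm shrinks them. Among the 203 miRNAs with a net signal above 100 on both arrays, 55.7% were below 0 and 26.1% lower by at least 0.32. The guide arms are all of that brightness, and 4 of the 5 were lower by at least 0.32. No member was 2-fold lower on this scale, which 0.747% of all detected miRNAs were. Scaling to the spike controls moved the median of all detected miRNAs from -0.04 to 0.35, and values under that scaling are read against 0.35 below.

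**Figure D2:**
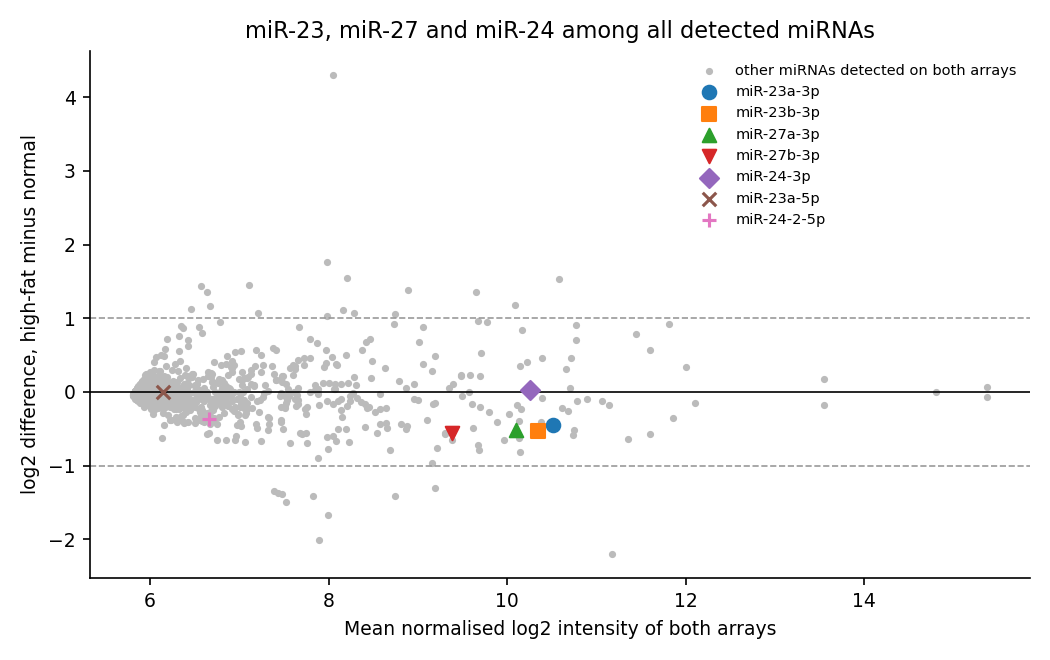
log2 difference (high-fat minus normal diet) against the mean normalised log2 intensity for the 1339 miRNAs detected on both arrays, with the 7 detected members in colour and dashed lines at 2-fold. The miR-23 and miR-27 guide arms form a tight group near -0.5 among bright miRNAs, and miR-24-3p lies on the zero line.

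The authors' deposited values, which are net signals times 1 factor per array, put the miR-23 and miR-27 guides further below 0, while miR-24-3p and miR-23a-5p had the other sign than under quantile scaling. On that linear scale miR-23b-3p went from 3213 to 1531 (log2 difference -1.07) and miR-23a-3p from 3434 to 1667 (-1.04). Both miR-23 copies were therefore just past 2-fold lower, at 2.10-fold and 2.06-fold, whereas 4.63% of all detected miRNAs and 9.85% of the 203 bright ones were at least 2-fold lower. miR-27a-3p went from 2521 to 1320 (-0.93) and miR-27b-3p from 1380 to 769 (-0.84). miR-24-3p was lower as well on this scale, from 2405 to 1630 (-0.56). In these values 6 of the 7 detected members were below 0, as were 49.7% of all detected miRNAs and 68% of the bright ones. The same 6 were lower by at least 0.32, a size that 25.3% of all detected and 40.9% of the bright miRNAs reached. The median over the guide arms was -0.93, against 0.00517 over all detected miRNAs and -0.23 over the 203 bright ones.

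The a and b copies could not be told apart by their response to diet. The log2 difference of miR-23a-3p exceeded that of miR-23b-3p by 0.08 under quantile scaling and by 0.03 in the deposited values. For miR-27a-3p and miR-27b-3p the gap was 0.05 under quantile scaling and -0.09 in the deposited values, so its sign depended on the scaling. The only error available is that of repeated control spots: over 5 bright controls with 8 spots each, the log2 difference of a single spot varied with an SD of 0.102 to 0.185, so that a gap between 2 single-spot probes has an SD of up to 0.261. Both gaps lie well inside it. This does not show that the clusters respond alike, since the guides of a family are near-identical (miR-27a-3p and miR-27b-3p differ by 1 base), so that a probe for one copy of miR-23 or miR-27 may also bind the other. Such binding was not measured.

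miR-24-3p differed less between the diets than the miR-23 and miR-27 guides. Its log2 difference lay above that of miR-23b-3p by 0.55 under quantile scaling and by 0.51 in the deposited values. It lay above that of miR-23a-3p by 0.47 and 0.48, and above that of miR-27a-3p by 0.53 and 0.37. With 75th percentile, median, spike-control or no scaling the gap to miR-27a-3p was 0.35, not far beyond the control-spot SD of 0.261. Against miR-27b-3p the gap was 0.58 under quantile scaling but 0.28 in the deposited values, and 0.25 with 75th percentile, median, spike-control or no scaling, which is inside the control-spot SD of 0.261. miR-24-3p had the highest difference of the 5 guide arms in 9 of the 10 ways of processing tried, the exception being the local background. These are not 9 separate checks of the order. The 75th percentile, median, spike-control and no scaling differ only by a constant per array, so they must give the same gaps. Plain subtraction and the deposited values likewise share theirs. The control-spot SD covers spots of an array and not differences between animals, so the separation of miR-24-3p has no biological replicate behind it.

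The passenger arms gave little signal. miR-24-2-5p was the brightest of them and was detected on both arrays, its net signal being 55.7 on normal diet and 40.0 on the high-fat diet. Its normalised intensity went from 115 to 89.0 (log2 difference -0.37), and its deposited value from 104 to 62.3 (-0.73). It was thus lower in these values, as the miR-23 and miR-27 guides were. Before scaling, however, its difference was -0.24, within the range of the bright controls given above. It was lower by at least 0.32 in 5 of the 9 ways of processing that leave out the local background. With spike-control scaling it was at 0.08, below the 0.35 of all detected miRNAs. The corresponding arm of the b cluster, miR-24-1-5p, which is no member, had a net signal of 24.8 and 19.6 (log2 difference -0.23 normalised and -0.60 in the deposited values, and 0.20 with spike-control scaling, against 0.35 for all detected miRNAs). Both precursors of miR-24 thus had a lower passenger arm on the high-fat array in these values, although the probes' shared first 16 bases mean that they may not be separate measurements.

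miR-23a-5p had a higher net signal on the high-fat array, although its spot median was slightly lower there (89.7 on normal diet and 88.6). The mean of the blank spots subtracted from it was 75.6 on normal diet and 69.2 on the high-fat diet. It was detected on both arrays, at 14.1 on normal diet and 19.3 on the high-fat diet, while its partner arm miR-23a-3p was 1.72-fold lower. In the deposited values miR-23a-5p stood at 26.1 and 30.1 (log2 difference 0.20), and under quantile scaling at 70.8 and 70.7 (-0.00254). The deposited difference was an ordinary one, the lower and upper quartiles over all detected miRNAs being -0.33 and 0.41. The gap between the arms, guide minus passenger, was -0.45 under quantile scaling and -1.25 in the deposited values. At the passenger's signal the offset holds quantile-scaled differences near 0.

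The remaining passenger arms were at or below the detection limit. miR-23b-5p was detected on the high-fat array only, at a net signal of 4.49 against 1.22. Its quantile-scaled values were 57.6 on the high-fat array and 55.9 on normal diet. Set against the lowest value of any miRNA detected on the normal-diet array, it was at least 1.02-fold higher, a bound at the floor of the signal. The sign of its difference turned with 75th percentile scaling (log2 difference -0.07). miR-27a-5p was detected on neither array (net signals -0.446 and -0.0393), and neither was miR-27b-5p (-0.0877 and 0.646). The anti-adipogenic miR-27 was therefore read through its guide arms alone.

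Other RNAs of the same loci, and those of the miR-181c and miR-181d genes upstream of the a cluster, were dim. miR-3074-5p is made from the strand opposite to miR-24 at both loci, and its sequence overlaps that of miR-24-3p by 20 bases. Its net signal was 4.0 on normal diet and 2.27 on the high-fat diet, just above the detection limits. The 8 listed neighbours were miR-24-1-5p, the miR-3074 forms, and the arms of miR-181c and miR-181d. Mir181c (chr8:84178873-84178961) and Mir181d (chr8:84178716-84178787) lie outside the 404 bases of the a cluster. Of the 8 neighbours, 6 were detected on both arrays. All 6 were below 0 under quantile scaling, as were 64.4% of all detected miRNAs, and none by 0.32. Their median was -0.09, against -0.04 over all detected miRNAs. With spike-control scaling it was 0.29, near the 0.35 of all detected miRNAs. In the deposited values 5 of the 6 were lower (median -0.27), where 49.7% of all detected miRNAs were (median 0.00517).

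The seeds of miR-27 and miR-24 were looked for in the other probes. Among 1614 probes whose sequence was at hand, the seed UCACAGU occurred in miR-27a-3p and miR-27b-3p only. The sequence of miR-23b-3p was not at hand, so the seed of miR-23a-3p was found in miR-23a-3p alone. Other probes without a sequence could likewise be missed. The seed GGCUCAG of miR-24-3p was shared by 4 probes. Of those, 3 were detected on both arrays and all were dim: miR-5124b had net signals of 10.1 and 8.27, miR-6369 of 7.55 and 11.7, and miR-6410 of 14.5 and 23.2. They did not move one way, with deposited log2 differences of -0.54, 0.37 and 0.42.

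miR-27a-3p and miR-27b-3p were also set beside the other miRNAs reported to restrain fat cell differentiation. All 12 of that list were detected on both arrays, and 10 were below 0 with a median of -0.19, where 64.4% of all detected miRNAs were below 0. Leaving out the miR-27 members, 8 of 10 were below 0 and the median was -0.12. The lowest was miR-130a-3p, which also targets Pparg, at 797 on normal diet and 408 on the high-fat diet (log2 difference -0.97). miR-145a-5p, a miRNA of smooth muscle and stroma, went from 1394 to 900 (-0.63), and miR-130b-3p from 175 to 124 (-0.50). With the miR-27 pair these were the members lower by at least 0.32, so 5 of the 12 were, or 3 of 10 without the miR-27 pair. That size was reached by 7.62% of all detected miRNAs and by 26.1% of the 203 bright ones. The highest was miR-138-5p, at 64.2 and 81.9 (0.35), and the dim miR-31-5p, at 57.3 and 62.5, was at 0.12. miR-221-3p (-0.12), miR-222-3p (-0.08), miR-33-5p (-0.13), miR-155-5p (-0.06) and let-7b-5p (-0.26) differed by less than 0.32. Scaled to the spike controls, the list's median was 0.12, against 0.35 over all detected miRNAs. The local background put miR-130a-3p (2.01) and miR-145a-5p (3.48) above 0.

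Marker lists of the cell types in fat lay on the same side as the miR-23 and miR-27 guides under quantile scaling. All 9 adipocyte miRNAs were lower (median -0.81), from miR-26b-5p at -0.65 to miR-378a-3p at -1.66. All 4 endothelial miRNAs were lower (median -0.34), from miR-222-3p at -0.08 to miR-126a-5p at -0.76. Of the 6 stromal and smooth muscle miRNAs 4 were lower (median -0.47), from miR-145a-5p at -0.63 to miR-199a-5p at 0.50. Of the 7 leukocyte miRNAs 6 were lower (median -0.58), from miR-150-5p at -1.35 to miR-342-3p at 0.13. These counts stand beside the 64.4% of all detected miRNAs that were below 0. With spike-control scaling the adipocyte median was -0.61, the leukocyte median -0.16, the stromal median -0.06 and the endothelial median 0.00237, while the guide arms had -0.32 and all detected miRNAs 0.35. The summed net signal of the endothelial list went from 4479 to 2840 and that of the stromal list from 5027 to 3159. The guide arms' median of -0.51 lay between the medians of the endothelial and adipocyte lists, whose members are miRNAs of the same fat pad. The part of cell makeup in the miR-23 and miR-27 difference was not tested.

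The miRNAs with the difference most like that of the guide arms were named by 1 rule, the smallest gap to their median of -0.51 among the 658 other miRNAs whose signal was at or above the median. They were miR-125a-5p, miR-99b-5p, miR-143-5p, miR-21a-5p and miR-770-3p, with log2 differences from -0.52 to -0.51. Each had 1 difference over 2 arrays, so this likeness describes size only. In the deposited values they ranged from -1.12 for miR-21a-5p to -0.67 for miR-99b-5p.

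**Figure D3:**
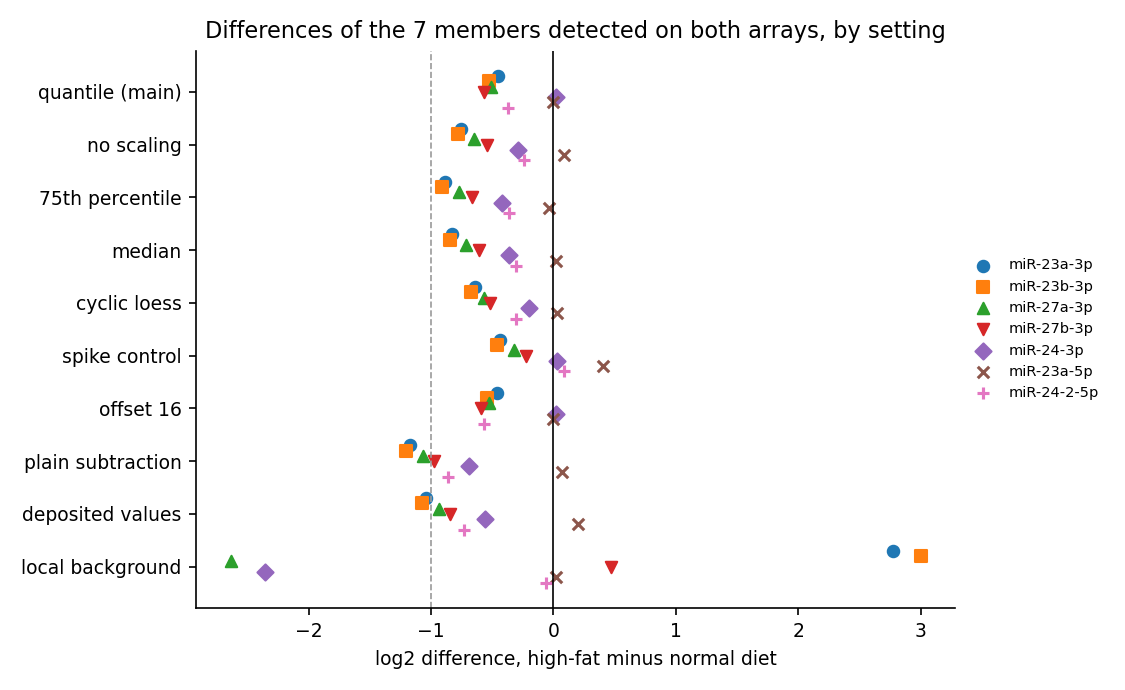
log2 difference (high-fat minus normal diet) of the 7 members detected on both arrays under each of 10 ways of processing, with a dashed line at 2-fold lower. The miR-23 and miR-27 guide arms lie left of 0 in the first 9, with miR-24-3p to their right, and scatter in both directions with the local background.

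The size of these differences depended on the scaling, and their direction on the background. Leaving out the local background, the other 9 ways of processing put miR-23b-3p between -1.20 and -0.46, miR-23a-3p between -1.17 and -0.44, miR-27a-3p between -1.06 and -0.32 and miR-27b-3p between -0.97 and -0.22. All 4 were below 0 in each of the 9. miR-24-3p ranged from -0.69 to 0.03 and was below 0 in 6 of them.

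With the scanner's local background in place of the blank spots, the members lay far apart. miR-23a-3p stood at 2.77 and miR-23b-3p at 3.00, but miR-27a-3p at -2.64 and miR-24-3p at -2.36. The background column differed between the arrays beside these spots: beside miR-23a-3p it read 1887 of a spot median of 1923 on normal diet (98.1%) and 612 of 1141 on the high-fat diet (53.6%). Beside miR-27a-3p it went the other way, from 48.6% to 92.4% of the spot, and beside miR-24-3p from 48.9% to 92.5%. Beside the blank spots the same column had a median of 64.4 and 63.0. It thus read higher beside these bright spots than beside the blanks, in unequal shares on the arrays. What the column holds was not tested, and it was not used for the values above.

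**Figure D4:**
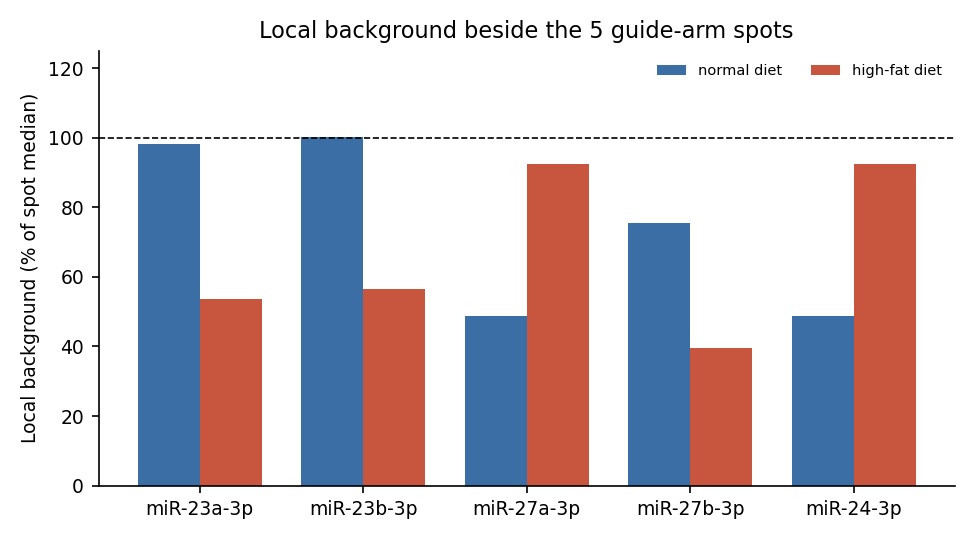
Local background as a percentage of the spot median for the 5 guide arms on each array, with a dashed line at 100%. It runs from 39.7% (miR-27b-3p, high-fat diet) to 100.2% (miR-23b-3p, normal diet) and differs between the arrays in opposite directions for miR-23 and miR-27b on one side and miR-27a and miR-24 on the other.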

How the data were processed

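Total RNA was labelled with Cy5 and hybridised to 1-colour 3D-Gene miRNA arrays, per the labels' protocols. Per the file headers, the deposited scanner intensity is the median of each spot, merged from several scanner gains, with a local background median. The sources used here do not name the scanner's software. The authors' deposited table holds processed intensity values. Against the scanner values each value is the spot median, less the trimmed mean over 896 blank spots, multiplied by 1.86 (normal diet) or 1.56 (high-fat), on a linear scale, uncentred, listed only above the detection limit. Depth has no counterpart here, and the number of arrays limits the precision.

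Here, spot medians were corrected with normexp (limma 3.58.1, R 4.3.3, offset 50) against the mean of the blanks (5% trimmed at each end), quantile-scaled over the 1900 miRNA probes and log2-transformed. This pipeline was run on simulated arrays with known changes, all larger than the quantile-scaled differences of the guide arms. It was checked there only for the sign of those changes and for unchanged miRNAs staying near 0. Rules for size were log2 differences of 0.32 and of 2-fold; 12 probes of several names were given no single name. Alternatives were other scalings, backgrounds, offsets, detection limits and the deposited values. All 10 members were named, with the extremes of the lists described member by member and the 5 miRNAs nearest the guide arms' median; miRNAs that share a seed, and further members of the lists, were named after their values were seen. The members, lists and background were chosen with earlier results of these data known. Sequences and positions are RefSeq's (GRCm38.p6), matched by name. Python 3.11.15 made the summaries.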

Additional observations from a re-analysis of the deposited data

How the results depend on the processing

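The median difference of the 5 guide arms (-0.51) stayed below 0 under every scaling and offset tried. It was -0.77 with 75th percentile scaling, -0.71 with median scaling, -0.93 in the deposited values, -1.06 by plain subtraction and -0.32 with spike-control scaling. The other detection limits could not change this median, since all 5 guide arms lie far above them. With the local background the guide-arm median was 0.47 and that of all detected miRNAs -0.00523. There 3 of 7 members were lower in place of the 6 under quantile scaling, where 64.4% of all detected miRNAs were. That background also turned miR-23a-3p (2.77), miR-23b-3p (3.00), miR-27b-3p (0.47) and the gap between the arms of miR-23a (2.75). The background column beside these spots differed between the arrays, as given above, and what it holds was not tested. Spike-control scaling put miR-24-2-5p above 0 (0.083), as it moved the median of all detected miRNAs from -0.04 to 0.35. The gap between miR-24-3p and miR-24-2-5p (0.39) was -0.055 with 75th percentile, median, spike-control and no scaling and -2.30 with the local background; the cause was not tested. The count of lower members was otherwise 4 to 8, the 8 being of all 10 members with no detection filter. Of those 8, miR-27a-5p (-0.0071) and miR-27b-5p (-0.00337) were detected on neither array. The 4, of 7, came with spike-control scaling, where the 10th percentile of all detected miRNAs was 0.18. No paired analysis was possible because each diet has 1 array. Signals near the blanks limit what can be said of the passenger arms of miR-23 and miR-27.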
